A study of Mus musculus with 6 samples.

Results

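The 11 laminin chain genes and 26 integrin subunit genes of the mouse were described in ganglia of the lumbar dorsal roots, which hold the cell bodies of sensory neurons with their glia, vessels and connective tissue. The members were found by a rule on names: protein-coding genes whose GRCm38 symbol begins with Lama, Lamb or Lamc and a digit, with Itga, or is Itgb1 to Itgb8. The rule found 37 of the 36793 genes in the deposited table, on 14 chromosomes. It used no measured value, but it was proposed with earlier results of these data known. Total RNA came from ganglia of level L3-L4 of 3 mice labelled wild type and 3 labelled NMDA-R knockout, for the NMDA type of glutamate receptor, and was sequenced as stranded mRNA libraries. The series title places the deletion of the gene for the GluN1 subunit, Grin1, in Schwann cells, which ensheathe peripheral axons. The sources used here do not give age, sex, strain, the allele or the promoter that drives the deletion, and the labels name no agent or surgery.

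Laminins are large cross-shaped proteins of basement membranes, each built from 1 alpha, 1 beta and 1 gamma chain. Integrins are cell surface receptors made of 1 alpha and 1 beta subunit, and the pair decides which matrix protein or cell surface ligand is bound. In peripheral nerve each Schwann cell and axon unit lies in a basement membrane whose laminins bind integrins with the beta 1 chain, the pair of alpha 6 and beta 4, and dystroglycan. Schwann cells need them to sort and myelinate axons, and sensory neurons use laminin-binding integrins to extend axons. Satellite glia, vessels and the perineurium have basement membranes of their own, and leukocytes carry integrins of another subset.

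Library totals were 28526704 to 36249163 expected counts. Between knockout libraries 5 and 6 the chi-square averaged 1.15 over 10258 genes and 0 genes differed, where the other 14 pairs averaged 13.2 to 104 with at least 3382 differing genes. With a chi-square of about 1 per gene, libraries 5 and 6 differed by about the sampling noise and were counted as 1 sample, their sum, so n was 3 for wild type and 2 for knockout. Of the wild-type libraries 1 and 3 were closest, at 13.2, while wild type 2 averaged 54.0 and 31.6 against them and 28.9 against knockout 5, and wild type 3 averaged 17.2 against knockout 4. Grin1 was at 68.6, 114 and 74.4 CPM (TMM-normalised counts per 1000000) in wild type and 81.5, 116 and 116 CPM in knockout 4, 5 and 6. Neurons express Grin1 as well, so its level in whole ganglia does not check a deletion in Schwann cells. The labels give the cell type as Schwann cells, but 7 neuronal markers summed to 13180 to 21710 CPM per library against 4212 to 5626 CPM for 6 markers of myelinating Schwann cells, so the samples are called whole ganglia here. In knockout 4 the 4 haemoglobin genes made up 1.48% of CPM and 6 skeletal muscle markers 39.1 CPM, and elsewhere 0.313 to 0.583% and 2.61 to 10.8 CPM.

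Levels between genes were compared on TPM, which divides by transcript length. RSEM weights this length by estimated isoform abundance, so short noncoding transcripts lower it, and a shorter length raises TPM and shares of TPM. In wild type it was 1314 to 1491 bases for Itga2b, whose coding transcript has 3437 bases. For Lama5 it was 3331 to 6070 bases, beside a coding transcript of 11388 bases. Itgb1, the beta subunit shared by most matrix-binding integrins, was the most abundant member, at 268, 229 and 255 TPM in the wild-type libraries and 260, 253 and 253 TPM in knockout 4, 5 and 6. Next in wild type came Itga7 at 74.8 ± 18.6 TPM (SD, n = 3) and Itga6 at 53.9 ± 3.16 TPM, both alpha subunits of laminin receptors. Lamb1 at 44.0 ± 3.0 TPM and Itgb8 at 42.5 ± 6.77 TPM followed, and their ranges over the 3 wild-type libraries overlapped. Of the 36 pairs of neighbours in the order of mean wild-type TPM, 29 had overlapping ranges. The 7 gaps lay after Itgb1, Itga7, Itga6, Lama4, Itgb4, Itgb3 and Lama1. On average 13 members were above 10 TPM in wild type, 18 lay between 1 and 10 TPM and 6 were under 1 TPM, namely Lama1, Itga8, Itgax, Itgae, Lamb3 and Itgad.

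**Figure D1:**
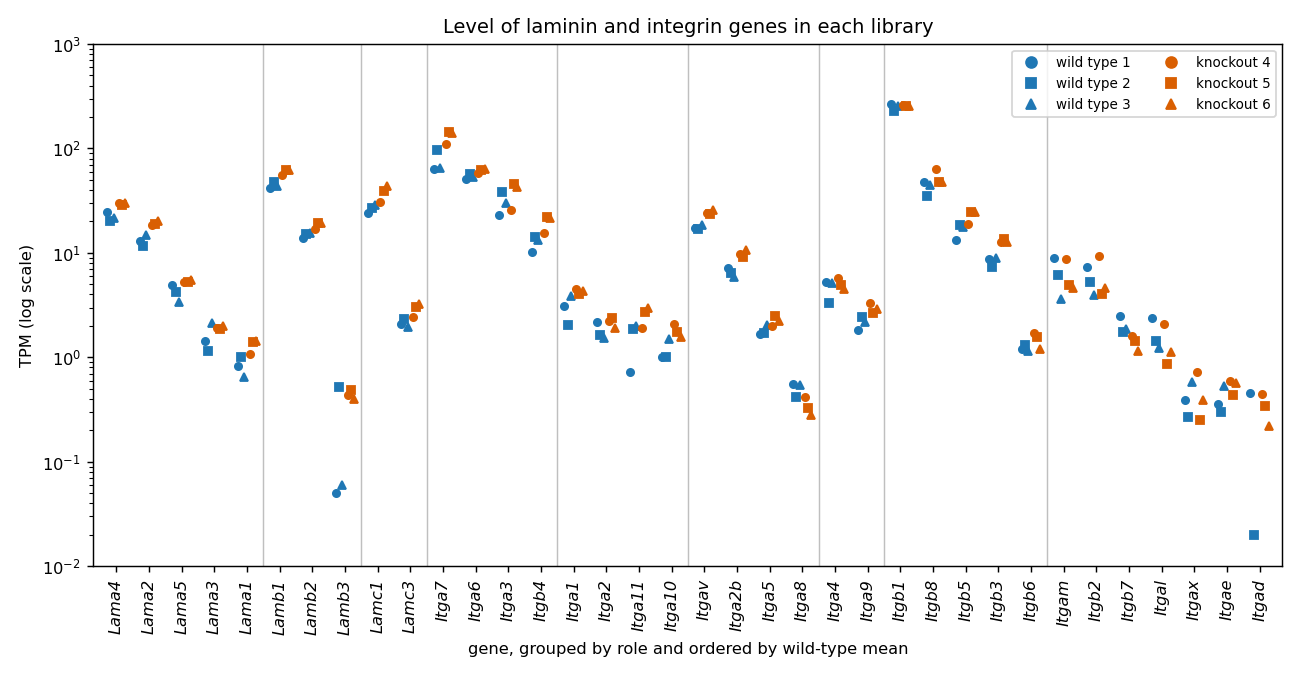
TPM (log axis) of laminin and integrin genes, grouped by role from laminin alpha chains at the left to leukocyte integrins at the right; each point is 1 library, blue for wild type and orange for knockout. Itgb1 lies between 229 and 268 TPM in all 6 libraries, and Itgad at 0 TPM in wild type 3 is not drawn.

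In TPM, 1 chain of each class dominated the laminins. Lama4, the alpha 4 chain of vascular and Schwann cell basement membranes, held 50.6 to 54.9% of the alpha chain TPM over the 6 libraries, and Lama2, the alpha 2 chain of the Schwann cell and muscle basement membrane, 28.9 to 34.7%. Lamb1 held 73.8 to 75.2% of the beta chain TPM in wild type and 75.9 to 76.2% in knockout. Lamc1, the gamma chain of most laminins, held 88.6 to 89.9% of the gamma chain TPM in wild type and 90.4 to 91.3% in knockout. The shares of Lama4, Lama2 and Lama5 overlapped between the groups. Lamb2, the beta 2 chain of synaptic and mature nerve basement membranes, held 24.0 to 26.2% of beta chain TPM in wild type and 23.2 to 23.6% in knockout, with no overlap.

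Among the beta subunits of integrins, Itgb1 held 73.3 to 74.7% of TPM in wild type and 67.7 to 69.0% in knockout, without overlap. The sum over the 8 beta subunit genes was 359, 312 and 347 TPM in wild type and 384, 368 and 367 TPM in knockout 4, 5 and 6. Itgb3 took 2.35 to 2.59% of it in wild type and 3.32 to 3.70% in knockout. Of the alpha subunit TPM, Itga7 held 32.9 to 40.5% in wild type and 41.9 to 45.9% in knockout, and Itga6 24.1 to 26.9% and 20.1 to 22.3%. These shares add to a fixed total, so a larger share of 1 gene lowers the others, and no test was made on them.

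**Figure D2:**
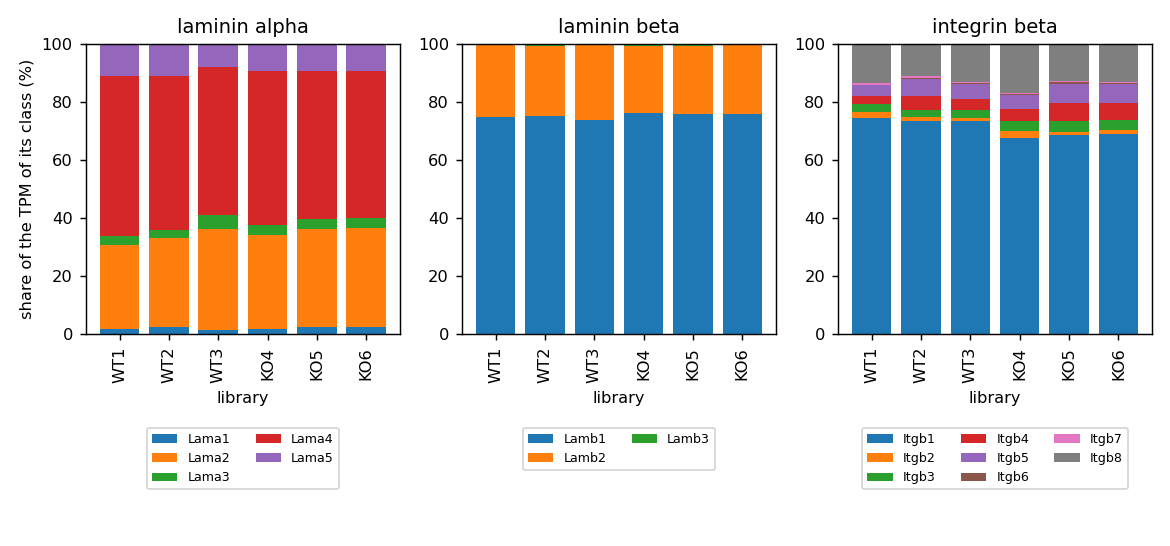
Share (%) of the summed TPM of its class taken by each chain or subunit, as stacked bars for each library, for the laminin alpha and beta chains and the integrin beta subunits. Lama4 and Lamb1 are the tallest laminin segments in all 6 libraries, and the Itgb1 segment of the integrin beta class spans 73.3 to 74.7% in wild type and 67.7 to 69.0% in knockout.

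Knockout and wild type were compared to ask how ganglion expression differs when GluN1 is deleted in Schwann cells. None of the 36 members tested passed at a false discovery rate of 0.05 in the edgeR quasi-likelihood test, where 0.0595% of all 16809 genes passed as higher and 0.0357% as lower. None passed at 0.10 either, where 0.178% of all genes did. By unadjusted p under 0.05 in the same test, 14 members were higher in knockout, beside 5.15% of all genes, and 0 were lower, beside 3.99%. DESeq2 on the same 5 samples called 6 members, Lama5, Lama4, Lama2, Lamb3, Itgb3 and Itgav, all higher, where it called 0.857% of all genes higher and 0.66% lower. Lamb3, counted among the 6 and the 14, passed the filter on low counts only through the knockout libraries, so it had to differ. Limma-voom with quality weights called 0 members, and 27 of all 16809 genes. The 14 members with unadjusted p under 0.05, beside 9.14% of all genes in either direction, became 13 without knockout 4 (9.55% of all genes) and 10 without knockouts 5 and 6 (4.81%). They became 12, 17 and 12 without wild type 1, 2 and 3 (5.49%, 12.9% and 7.05%), and 9 and 10 on TPM with pseudocounts of 0.1 and 1 (8.45% and 8.6%). The fold change was positive for 32 of the 36, where 50.2% of all genes were positive, and the median log2 fold change was 0.38 over the 36 and 0.00119 over all genes. Both knockout samples lay above all wild-type samples in CPM for 18 members, beside 11.8% of all genes, and below them for 1, Itgb7, beside 15.5%. Lamb3 is among the 32 positive members and among the 18. After correction for GC content, 32 members were positive beside 47.1% of all genes. By unadjusted p under 0.05 in that fit, 14 were higher beside 5.63%, and both counts include Lamb3. After this correction 0 members were called, beside 0.0892% of all genes called higher. Itgad, with 0 to 6.61 expected counts per library, did not pass the filter on low counts.

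**Figure D3:**
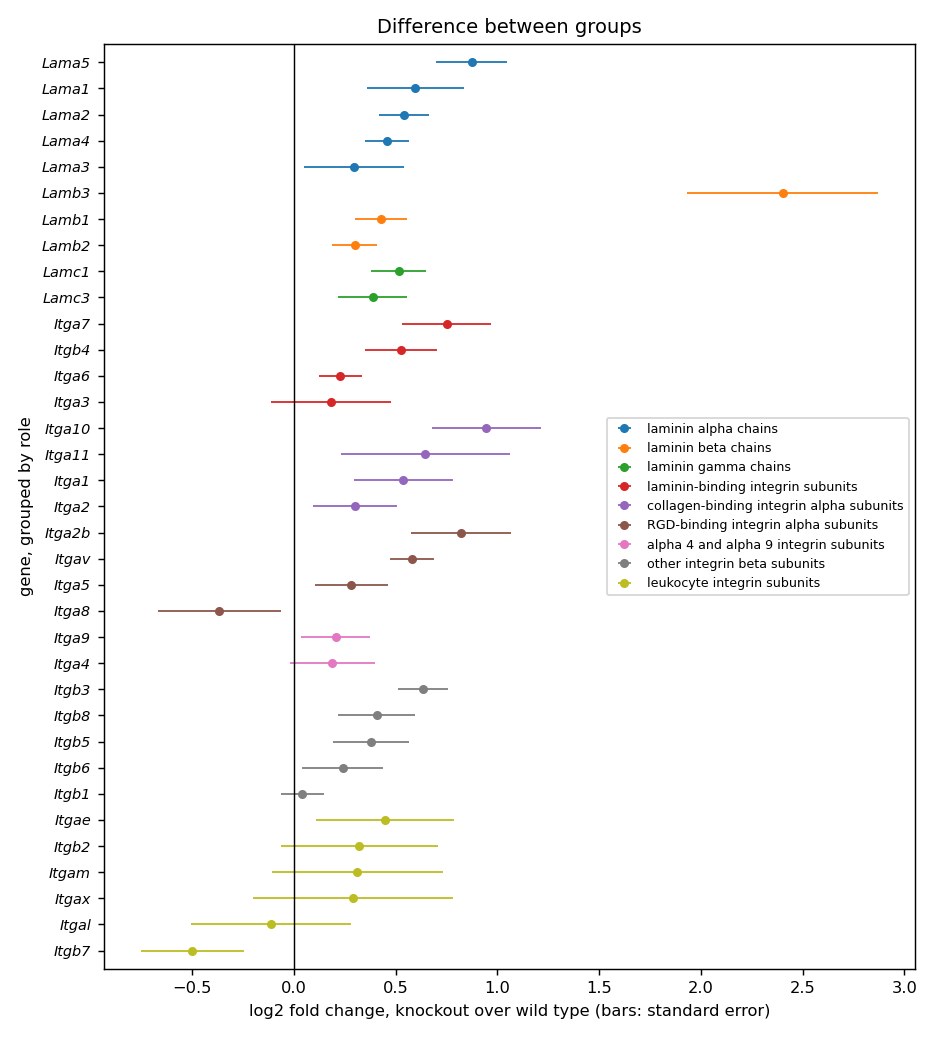
Log2 fold change of knockout over wild type (x axis, bars are standard errors) for genes tested, grouped by role (y axis). Among the laminin chains drawn Lamb3 lies farthest to the right at 2.40, and Itgb1 lies at 0.04. Lamb3 passed the filter on low counts only through the knockout libraries.

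The start regions of the members were read from RefSeq on GRCm38.p6, where 23 of the 37 genes had 26 annotated starts. The letters GGGCGG of the GC box, on either strand of the 250 bases before the start, were found for 34.6% of the 26 member starts and 32.7% of all 32851 starts. The AP-1 motif TGANTCA, with N for any base, was found before 1 member start, that of Itgax, and before 6.75% of all starts. The CRE motif TGACGTCA and TATAAA were found before none of the 26, and before 1.55% and 12.4% of all starts. A match is a run of letters and not a measured site. Of the members matched, Itgav, Lamb3 and Lama5 had the smallest unadjusted p in edgeR, and were picked by it. The regions of Itgav and Lama5 are printed. Those of Lamb3, which passed the filter on low counts only through the knockout libraries, are not. Capitals mark GC box letters, of which Lama5 has 4 runs in a region of 72.4% GC and Itgav none in one of 64.4% GC. The Itgav region is chr2:83724147-83724396 on the plus strand and the Lama5 region chr2:180225860-180226109 on the minus strand, both written 5′ to 3′ towards the gene.
Itgav: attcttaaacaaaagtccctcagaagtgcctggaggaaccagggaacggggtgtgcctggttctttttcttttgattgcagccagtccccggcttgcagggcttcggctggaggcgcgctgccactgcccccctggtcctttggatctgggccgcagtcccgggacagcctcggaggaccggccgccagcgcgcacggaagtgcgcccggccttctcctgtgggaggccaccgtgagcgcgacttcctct
Lama5: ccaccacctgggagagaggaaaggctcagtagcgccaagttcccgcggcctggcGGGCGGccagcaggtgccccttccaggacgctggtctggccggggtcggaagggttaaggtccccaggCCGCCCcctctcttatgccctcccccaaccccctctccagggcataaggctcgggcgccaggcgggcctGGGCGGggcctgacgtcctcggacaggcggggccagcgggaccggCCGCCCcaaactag

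The laminin chains as a class were at 325, 358 and 362 CPM in wild type when summed over the 11 genes, and at 460, 498 and 500 CPM in knockout 4, 5 and 6. Every knockout library was above every wild-type library in this sum. By unadjusted p under 0.05 in edgeR, 8 of the 11 chains were higher, beside 5.15% of all genes, and for 9 of 11 the knockouts lay above all wild type, beside 11.8%, both counts including Lamb3. The median log2 fold change was 0.46. The 8 became 4 without knockouts 5 and 6, where the share of all genes in either direction went from 9.14% to 4.81%, and 4 on TPM with either pseudocount (8.45% and 8.6%). In bulk RNA, more cells of a type and more RNA per cell cannot be told apart.

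Lama2 (chromosome 10, 26980036 to 27619758, GRCm38) had 57.6, 52.8 and 65.6 CPM in wild type and 85.0, 83.0 and 87.9 CPM in knockout 4, 5 and 6. All knockout libraries lay above all wild-type libraries, and its log2 fold change was 0.54 (standard error 0.12, edgeR adjusted p = 0.284). Lama4 had 48.3, 47.8 and 53.8 CPM in wild type and 71.1, 65.3 and 66.2 CPM in knockout, also without overlap (log2 fold change 0.46, standard error 0.11, edgeR adjusted p = 0.306). DESeq2 called both, with adjusted p of 0.0295 for Lama2 and 0.0484 for Lama4. Limma-voom with quality weights called neither, with adjusted p of 0.255 for Lama2 and 0.266 for Lama4. In limma on TPM with pseudocount 0.1 the adjusted p was 0.447 for Lama2 and 0.476 for Lama4.

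Lama5 (chromosome 2, 180176373 to 180225859), the alpha chain of many epithelial and vascular basement membranes, had 7.49, 9.93 and 9.37 CPM in wild type and 14.4, 17.6 and 18.8 CPM in knockout. The lowest knockout library exceeded the highest wild-type library, and the fold difference was 1.83 (log2 0.87, standard error 0.17, edgeR adjusted p = 0.25). Lama5 was called by DESeq2 (adjusted p = 0.00452), by edgeR with 6 separate libraries (adjusted p = 0.046) and by edgeR with no filter on low counts (adjusted p = 0.0465). With no filter it was the 1 member called, and 0.176% of all genes were higher and 0.148% lower. The fit with 6 libraries counts the near-identical knockout 5 and 6 as 2 samples. For Lama5 the adjusted p was 0.159 in limma-voom with quality weights and 0.673 in limma on TPM with pseudocount 0.1. On TPM the difference was smaller, with log2 0.35, from 4.96, 4.25 and 3.41 TPM in wild type to 5.31, 5.22 and 5.50 TPM in knockout. RSEM gave Lama5 a mean transcript length of 3331, 5051 and 6070 bases in wild type and 5773, 7516 and 7613 bases in knockout 4, 5 and 6. The annotation has 1 coding transcript of 11388 bases and 3 noncoding ones of 451 to 734 bases, so a longer mean length means a larger estimated share of the long transcript.

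Lama1, an alpha chain of early embryonic and some adult basement membranes, was low, at 3.60, 4.50 and 2.80 CPM in wild type and 4.80, 6.05 and 6.19 CPM in knockout. The groups did not overlap (log2 fold change 0.60, standard error 0.24, edgeR adjusted p = 0.531). Lama3, the alpha chain of skin basement membrane, had 6.83, 5.56 and 10.01 CPM in wild type and 9.32, 8.69 and 9.23 CPM in knockout, with overlap and log2 0.29.

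The beta chains differed in the same direction. Lamb1, the beta chain most laminins of nerve carry, had 94.8, 117 and 100.6 CPM in wild type and 133, 147 and 145 CPM in knockout, with no overlap (log2 fold change 0.43, standard error 0.13, edgeR adjusted p = 0.402). Lamb2 had 35.7, 39.4 and 39.1 CPM in wild type and 44.7, 48.6 and 48.6 CPM in knockout, also with no overlap and log2 0.30. Lamb3, which joins Lama3 in a laminin of skin, was counted 3, 8 and 3 times in wild type, against 24, 29 and 23 times in knockout 4, 5 and 6. All knockout libraries were above all wild-type libraries, at 5.28-fold (log2 2.40, standard error 0.47, edgeR adjusted p = 0.249, DESeq2 adjusted p = 0.0482). For Lamb3 the adjusted p was 0.097 in limma-voom with quality weights and 0.66 in limma on TPM with pseudocount 0.1. Its counts reached 10 only in the knockout libraries, so it passed the filter through the group in which it is high. On TPM wild type 2 was at 0.52, above knockout 4, 5 and 6 at 0.44, 0.49 and 0.40, while wild type 1 and 3 were at 0.05 and 0.06 TPM. RSEM gave Lamb3 a length of 1103 bases in wild type 2 and of 4013 bases in wild type 1 and 3, and the TPM log2 difference was 1.14.

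Of the gamma chains, Lamc1 had 62.8, 72.3 and 72.6 CPM in wild type and 88.4, 111 and 107 CPM in knockout, without overlap (log2 fold change 0.52, standard error 0.14, edgeR adjusted p = 0.351). Lamc3, a gamma chain of brain, retina and some peripheral tissues, was at 5.58, 6.38 and 5.16 CPM and 6.67, 7.92 and 8.44 CPM, with log2 0.39.

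**Figure D4:**
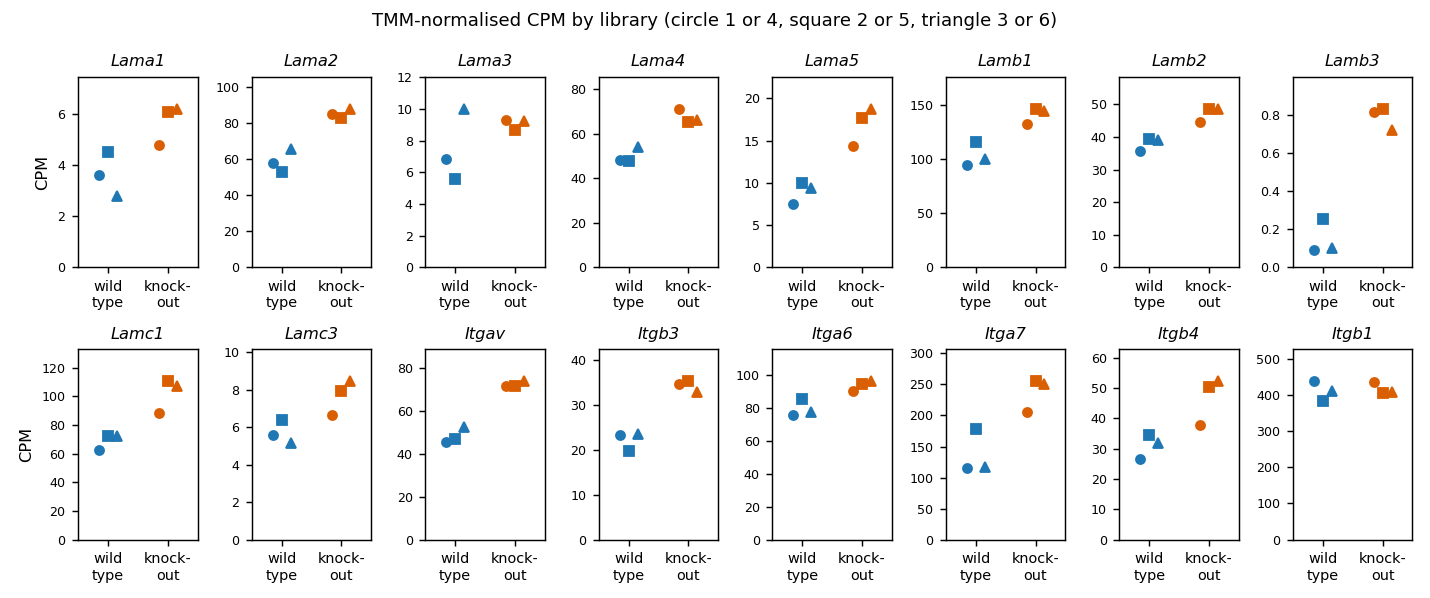
TMM-normalised CPM in each library for 10 laminin chains and 6 integrin subunits, each panel from 0 on its own axis; blue points are wild type 1 to 3 and orange points knockout 4 to 6. Knockout points lie above all wild-type points in 14 of the 16 panels, the exceptions being Lama3 and Itgb1. Lamb3, among the 14, passed the filter on low counts only through the knockout libraries. The panels are a selection. With knockout 5 and 6 as 1 sample, this held for 18 of the 36 members tested and for 11.8% of all genes.

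Markers of the cells that make these basement membranes were read beside them. Counts of positive markers stand beside 50.2% of all genes. For endothelium 6 of 6 markers were positive and their sum was 55.3 to 69.0 CPM in wild type and 76.7 to 81.5 CPM in knockout. For myelinating Schwann cells 6 of 6 were positive, with sums of 4212 to 4871 and 5488 to 5626 CPM, and for satellite glia 5 of 5, with 2625 to 2768 and 2936 to 3239 CPM. The perineurial markers had 2 positive and 2 negative, with sums of 115 to 125 and 144.5 to 156 CPM. The mural cell markers of vessels had 5 of 6 positive but summed lower in knockout, at 263 to 327 CPM in wild type and 210 to 216 CPM in knockout. Fibroblast markers had 4 of 5 negative, with sums of 1411 to 1845 and 1283 to 1699 CPM. None of the markers in these 6 lists was under 3 counts in every library, and their part in the laminin values was not tested.

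The subunits grouped here as laminin-binding are Itga3, Itga6 and Itga7, which pair with Itgb1, and Itgb4, which pairs with Itga6. Itga7, known from skeletal muscle and also made by sensory neurons, had 115, 178 and 118 CPM in wild type and 206, 255 and 251 CPM in knockout 4, 5 and 6. All knockout libraries lay above all wild-type libraries, a 1.68-fold difference (log2 0.75, standard error 0.22, edgeR adjusted p = 0.389). The 6 skeletal muscle markers summed to 10.8, 2.61 and 7.49 CPM in wild type and 39.1, 3.87 and 4.10 CPM in knockout 4, 5 and 6. The 7 neuronal markers summed to 13180, 18690 and 14850 CPM in wild type and 16860, 21700 and 21710 CPM in knockout. The part of muscle and neurons in the Itga7 value was not tested.

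Itgb4, the subunit that links laminin to intermediate filaments, had 26.6, 34.5 and 32.0 CPM in wild type and 37.7, 50.4 and 52.3 CPM in knockout, with no overlap (log2 fold change 0.53, standard error 0.18, edgeR adjusted p = 0.478). Itga6 had 75.4, 85.4 and 77.3 CPM in wild type and 90.5, 94.2 and 96.1 CPM in knockout, again with no overlap but only 1.17-fold apart. Itga3 overlapped, at 47.2, 82.7 and 61.6 CPM in wild type and 53.8, 93.1 and 87.6 CPM in knockout. Its high libraries were wild type 2 and knockout 5 and 6, the same that were highest in the sum of the neuronal markers. The part of neurons in the Itga3 value was not tested. The log2 fold change of Itga3 was 0.18 and turned to -0.24 without knockout 5 and 6. The ratio of Itga7 to Itga6 TPM was 1.23, 1.68 and 1.23 in wild type and 1.88, 2.28 and 2.20 in knockout.

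Itgb1 itself had 437.5, 383 and 411 CPM in wild type and 436, 406 and 409 CPM in knockout 4, 5 and 6. The groups overlapped and the log2 fold change was 0.04 (standard error 0.11, edgeR adjusted p = 0.912). Its sign turned without wild type 2 (-0.0024) and without knockout 4 (-0.0034).

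Collagen is bound by the alpha subunits Itga1, Itga2, Itga10 and Itga11, all partners of Itgb1. Itga10, known from cartilage, had 1.32, 1.89 and 1.88 CPM in wild type and 3.88, 2.64 and 2.75 CPM in knockout, with no overlap (log2 fold change 0.95, standard error 0.27, edgeR adjusted p = 0.379). Cartilage and bone markers summed to 7.55 to 9.71 CPM in wild type and 12.7 to 13.5 CPM in knockout, with 3 of 3 tested positive, and their part in the Itga10 value was not tested. Itga1 was at 8.51, 5.69 and 10.4 CPM and 12.6, 10.8 and 11.5 CPM, without overlap and with log2 0.54. Itga11, a collagen receptor of fibroblasts, spread widely in wild type, at 1.65, 4.24 and 4.51 CPM, against 4.42, 6.02 and 6.60 CPM in knockout. Itga2, also a platelet subunit, had 4.17, 3.18 and 2.91 CPM in wild type and 4.39, 4.50 and 3.53 CPM in knockout, with overlap. Itga1 and Itga2 lie 21.0 kb apart on chromosome 13 and had log2 fold changes of 0.54 and 0.30.

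The alpha subunit Itgav binds the Arg-Gly-Asp motif of fibronectin, vitronectin and the latent form of TGF-beta, and pairs with Itgb1, Itgb3, Itgb5, Itgb6 or Itgb8. Itgav (chromosome 2, 83724397 to 83806916, GRCm38) had 45.5, 47.0 and 52.4 CPM in wild type and 71.5, 71.5 and 73.8 CPM in knockout 4, 5 and 6. All 3 knockout libraries lay above all wild-type libraries. The fold difference was 1.496 (log2 0.58, standard error 0.11), and the adjusted p was 0.235 in edgeR, 0.00261 in DESeq2 and 0.0394 in edgeR with 6 separate libraries. That last fit counts the near-identical knockout 5 and 6 as 2 samples. In limma-voom with quality weights the adjusted p was 0.187, and in limma on TPM with pseudocount 0.1 it was 0.412.

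Itgb3 (chromosome 11, 104608000 to 104670476), its partner in the vitronectin receptor and also the platelet beta subunit, had 23.4, 19.7 and 23.5 CPM in wild type and 34.6, 35.3 and 32.8 CPM in knockout. The groups did not overlap (log2 fold change 0.64, standard error 0.12, edgeR adjusted p = 0.245, DESeq2 adjusted p = 0.00634). With 6 separate libraries edgeR called 3 members, Itgav, Itgb3 and Lama5 (adjusted p = 0.046 for Itgb3 and Lama5), where 0.46% of all genes were called higher and 0.411% lower. The TPM ratio of Itgav to Itgb3 was 1.97 to 2.33 in wild type and 1.72 to 2.02 in knockout.

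The other beta partners of Itgav were less separated. Itgb8, which with Itgav activates latent TGF-beta, had 184, 136 and 171 CPM in wild type and 254, 179 and 181 CPM in knockout 4, 5 and 6, with overlap and log2 0.41. Knockout 4 was the highest library for Itgb8, and knockout 5 and 6 lay within the wild-type range. Itgb5, a vitronectin receptor subunit, was at 18.6, 26.2 and 24.3 CPM and 26.1, 34.0 and 33.2 CPM, with log2 0.38 and knockout 4 just under wild type 2. Itgb6, an epithelial subunit, was at 2.31 to 2.55 CPM in wild type and 2.16 to 3.13 CPM in knockout.

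Of the other alpha subunits that bind Arg-Gly-Asp, Itga5, the fibronectin receptor, had 3.33, 3.43 and 4.07 CPM in wild type and 4.08, 4.88 and 4.38 CPM in knockout (log2 0.28). Itga8 had 1.32, 1.13 and 1.13 CPM in wild type and 1.16, 0.746 and 0.719 CPM in knockout (log2 -0.37), with overlap. Itga2b, the platelet partner of Itgb3, had 4.71, 3.77 and 3.56 CPM in wild type and 8.85, 5.02 and 5.91 CPM in knockout 4, 5 and 6. It had log2 0.82 with a standard error of 0.25 (edgeR adjusted p = 0.408), and knockout 4 stood highest in CPM. On TPM knockout 6 stood highest, with 9.67, 9.04 and 10.55 TPM in knockout 4, 5 and 6. Wild type was at 7.16, 6.48 and 5.91 TPM, and the TPM log2 difference was 0.58. The 5 platelet markers summed to 7.01 to 8.39 CPM in wild type, 20.1 CPM in knockout 4, and 7.83 and 7.57 CPM in knockout 5 and 6. Their part in the Itga2b and Itgb3 values was not tested. Itga2b and Itgb3 lie on chromosome 11, 2137878 bases apart.

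The leukocyte subset did not separate the groups. Summed over 7 genes it had 34.5, 23.3 and 18.5 CPM in wild type and 39.5, 19.4 and 20.5 CPM in knockout 4, 5 and 6. Itgam and Itgb2, which form the complement receptor of macrophages and neutrophils, were highest in wild type 1 and knockout 4, at 16.1 and 17.8 CPM for Itgam and 9.17 and 12.7 CPM for Itgb2. The 5 neutrophil markers had the same 2 libraries on top, with sums of 416, 301 and 116 CPM in wild type and 450, 168 and 166 CPM in knockout. Macrophage markers varied less, from 53.0 to 67.7 CPM over the 6 libraries, with 2 of 7 positive. The part of these cells in the integrin values was not tested. Without knockout 4 the log2 fold change turned from 0.31 to -0.22 for Itgam, from 0.32 to -0.39 for Itgb2 and from 0.29 to -0.40 for Itgax.

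Itgb7, the beta subunit of gut-homing lymphocytes, had 3.00, 2.14 and 2.22 CPM in wild type and 1.97, 1.69 and 1.35 CPM in knockout, the 1 member whose knockout samples lay below all wild-type samples (log2 -0.50, standard error 0.25, edgeR adjusted p = 0.599). The 6 T cell markers summed to 2.08 to 2.598 CPM in wild type and 1.16 to 2.04 CPM in knockout, with 3 of 3 tested negative, and their part in the Itgb7 value was not tested. Itgal, the alpha subunit of lymphocyte adhesion to ICAM proteins, was at 4.77, 2.99 and 2.77 CPM and 4.53, 1.86 and 2.35 CPM. Itgax, an alpha subunit of dendritic cells, was at 0.719, 0.503 and 1.06 CPM and 1.36, 0.459 and 0.688 CPM. Itgae, a subunit of tissue lymphocytes, was at 0.534 to 1.06 CPM over the 6 libraries.

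The alpha 4 and alpha 9 subunits bind fibronectin, VCAM-1 or tenascin. Itga4 had 23.1, 14.9 and 21.7 CPM in wild type and 25.2, 20.7 and 19.8 CPM in knockout 4, 5 and 6, with overlap (log2 0.19). Itga9 had 5.85, 6.35 and 6.87 CPM in wild type and 6.33, 8.23 and 8.19 CPM in knockout (log2 0.21, and -0.0044 without knockouts 5 and 6).

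**Figure D5:**
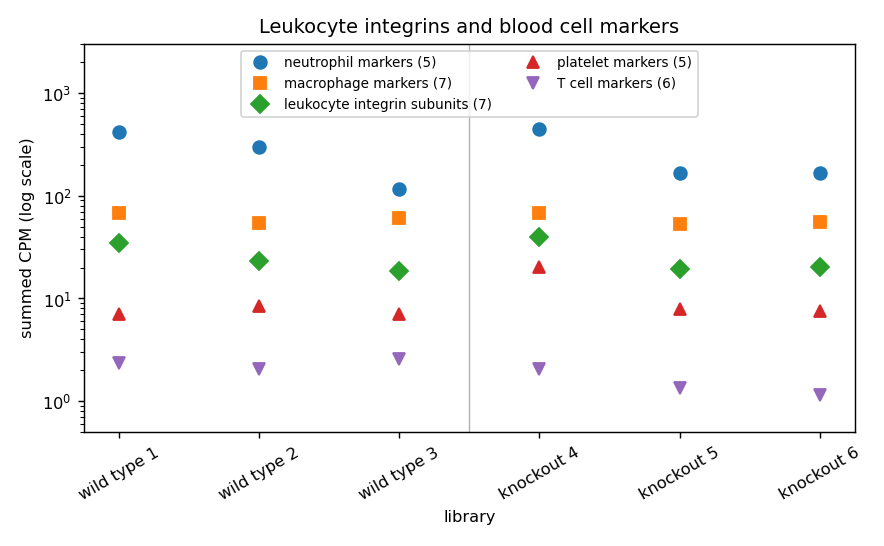
CPM summed over each list (y axis, log scale) by library for the 7 leukocyte integrin subunits and for markers of neutrophils, macrophages, platelets and T cells. The leukocyte integrins and the neutrophil markers are both highest in wild type 1 and knockout 4, and the platelet markers stand at 20.1 CPM in knockout 4 against 7.01 to 8.39 CPM in the other libraries.

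Of the other genes of the pathway, 0 in 5 lists passed over all genes in edgeR, beside 0.0595% of all genes higher and 0.0357% lower. By unadjusted p under 0.05 the counts of these lists stand beside 5.15% of all genes higher and 3.99% lower. Counts of positive genes stand beside 50.2% of all genes. Of 18 other basement membrane components 10 were higher and 0 lower by unadjusted p under 0.05, and 15 were positive with a median log2 fold change of 0.51. Nid1, nidogen, which links laminin to type IV collagen, had 88.2, 93.9 and 110 CPM in wild type and 148.5, 157 and 154 CPM in knockout, with log2 0.65 and a standard error of 0.13. Nid2 was at 0.52 and Col18a1, a basement membrane collagen, at 0.89 on the log2 scale.

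Of 19 tested genes for non-integrin laminin receptors and the dystroglycan complex, 4 were higher by unadjusted p under 0.05 and 13 were positive, with a median of 0.18. Dag1, dystroglycan, had 84.2, 126 and 97.3 CPM in wild type and 120, 196 and 197 CPM in knockout 4, 5 and 6, with overlap between wild type 2 and knockout 4 (log2 0.63, standard error 0.25, edgeR adjusted p = 0.533). Sntb2, a syntrophin adaptor of the complex, was at 0.40 on the log2 scale.

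The 26 tested adaptors and focal adhesion genes had 1 higher and 1 lower by unadjusted p under 0.05, shares near the 5.15% and 3.99% of all genes. These were Pxn, paxillin, at 0.39, and Rsu1, a partner of the integrin-linked kinase complex, at -0.32 on the log2 scale. Tns3, tensin 3, was at 0.24. Of 19 other integrin ligands 6 were higher and 0 lower, with Tnc, tenascin C, at 1.37, Fn1, fibronectin, at 0.99, and Fbn1, fibrillin, at 0.62 on the log2 scale. The 8 tetraspanins and integrin partners had a median of -0.03, and Cd82 was the 1 lower by unadjusted p, at -0.47.

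The deposited gene lengths, which RSEM weights by estimated isoform abundance, gave a second readout for the 26 tested members with more than 1 transcript. For 4 members, Lamc1, Itgav, Itga6 and Itgam, the knockout samples were longer than all wild-type samples, where this held for 7.88% of all such genes, and for Itgb5 and Itgb6 they were shorter, where 9.16% were. Libraries 5 and 6 entered these counts as their mean weighted by the gene's counts. Itga6 was at 3252, 3250 and 3251 bases in wild type and 3328, 3393 and 3389 bases in knockout 4, 5 and 6. The wild-type values lay within 2 bases of each other and the knockout values were all longer. Itgav was at 5721, 5933 and 6219 bases in wild type and 6364, 6806 and 6427 bases in knockout. For Lamc1 knockout 6 alone, at 5511 bases, was below all wild-type libraries, so its separation holds only for that mean. For Itgb5 knockout 5 and wild type 1 were both at 3090 bases. With 3 against 2 samples no length was tested.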

How the data were processed

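Libraries were 6, from 3 wild-type and 3 knockout mice. Trimmomatic 0.38, STAR 2.6.0a, RSEM 1.3.0 and the build GRCm38 are named, per the submitters' processing notes, with the annotation release and strand setting not given in the sources used here. RNA of a RIN above 8.0 entered the libraries, per the labels' protocols. The authors deposited 1 table of RSEM expected counts (estimated, not normalized), TPM, FPKM and other values such as gene length. RSEM splits reads that fit several transcripts, so 27.1 to 27.9% of detected genes per library had counts that were not whole (tolerance 1e-09).

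Names and positions came from GENCODE vM21, which matched 35243 of 36793 identifiers; the other 1550 held 0.224 to 0.263% of counts and stayed in. Expected counts were rounded, knockout libraries 5 and 6 were summed, and genes were filtered with filterByExpr, scaled by TMM and tested two-sided by quasi-likelihood in edgeR 4.0.16 (R 4.3.3) on genotype alone, with Benjamini-Hochberg adjustment over 16809 genes at 0.05. A standard error is the size of the log2 fold change over the root of its F statistic. CPM by library were scaled over the 6 libraries, and log2 fold changes come from the 5 samples. Each p-value measures only the spread between these mice. TPM entered limma 3.58.1 as log2(TPM + 0.1) in an alternative, where folds of low genes are understated; FPKM served only to check the order of levels. Alternatives included DESeq2 1.42.0, limma-voom, RLE scaling, no filter, GC correction, 6 separate libraries and each sample left out. The tests were run on simulated data first. The members and lists were chosen with earlier results of these data known. Values by library are given for members with an unadjusted p under 0.05, the 3 highest in TPM per role group and those whose direction turned in an alternative, and from each pathway list up to 3 genes with the smallest p. Lama3, Itga8 and the DESeq2 values were added after their values were seen. Values of 1 member and of 1 gene of a pathway list are not reported here, though both stay in the counts and sums.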

Additional observations from a re-analysis of the deposited data

How the results depend on the processing

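No paired analysis was possible because wild type holds mice 1 to 3 and knockout mice 4 to 6, with no number in common. The 16 changed genes became 144 with 6 separate libraries, 255 in DESeq2, 27 in limma-voom with quality weights, 81 with no filter on low counts, 25 with GC correction and 30 at an FDR of 0.10. With 1 sample left out there were 7 to 14, with 7 without knockout 4, 8 without wild type 2 and 10 without wild type 3. The count of 0 changed members became 3 with 6 separate libraries, 6 in DESeq2 and 1 with no filter, and was 0 with each sample left out. With 1 sample left out, log2 fold changes ran from -0.0034 to 0.11 for Itgb1 (also -0.0024 without wild type 2), -0.74 to 0.36 for Itgal (also 0.20 without wild type 1), -0.39 to 0.82 for Itgb2 (0.56 without wild type 1), -0.22 to 0.74 for Itgam, -0.40 to 0.84 for Itgax (0.60 without wild type 3), -0.24 to 0.51 for Itga3 and -0.0044 to 0.38 for Itga9. Itgax was at -0.16 in limma-voom. The cause was not tested, except that 6 separate libraries count a near-identical pair as 2 samples and an FDR of 0.10 is looser. Of the other values of single members, 484 kept direction and call and 10 gained a call. With knockout 4 or the pair left out, the spread came from wild type alone. The order of member levels kept 35 of 37 places on FPKM. TPM is FPKM scaled by library, so only the mean over libraries could move a place. Depth limits Lamb3 and Itgad, with at most 8 counts per wild-type library.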
